A study of Mus musculus with 6 samples.

Results

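The genes described here are 50 mouse genes of the extracellular side of Wnt signaling: 18 Wnt ligands, 10 Frizzled receptors, the co-receptors *Lrp5* and *Lrp6*, the receptors *Ror1*, *Ror2* and *Ryk*, the R-spondin receptors *Lgr4* and *Lgr6*, 4 R-spondins, the secretion genes *Porcn* and *Wls*, and 9 secreted antagonists. They were taken as a list of gene names by family, and make up 50 of the 35527 gene symbols to which the transcripts of the tables were assigned. RNAseq was performed on 6 liver tumors, 3 excised from each of 2 male mice, called M1T1, M1T2 and M1T3 for mouse 1 and M2T1, M2T2 and M2T3 for mouse 2. Both animals were CMRtdT mice, which carry 1 *Ctnnb1* allele whose exon 3 is deleted by Cre, the *MUP-uPA* transgene, which injures hepatocytes, and a Cre-dependent tdTomato reporter. Both mice were fed a high-fat diet (HFD) from 6 weeks of age, received AAV8-TBG-Cre by tail vein at 8 weeks, and had their tumors excised 6.5 months later. The TBG promoter drives Cre in hepatocytes, while an excised tumor also holds vessels, immune cells and fibroblasts of the host that do not carry the deletion. All 6 tumors belong to 1 condition. Non-tumor liver and tumors without the *Ctnnb1* mutation are not analysed here, so each level is that of a tumor and no change against normal liver is given. Each tumor was deposited as estimated read counts and as TPM, a measure scaled for transcript length and for depth. TPM allows levels of genes to be compared within a tumor, while comparisons between tumors also depend on the scaling, as described below.

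Wnt ligands are lipid-modified secreted proteins that bind a Frizzled receptor together with LRP5 or LRP6, which stops the destruction of β-catenin, or together with ROR or RYK, which signal through other routes. R-spondins bind LGR receptors and raise the amount of Frizzled at the cell surface, while SFRP proteins capture ligands and DKK proteins block the LRP co-receptors. In the adult liver, Wnt ligands and R-spondin from endothelial cells around the central vein keep neighboring hepatocytes in their pericentral state. An exon 3 deletion makes β-catenin resistant to destruction inside the cell, downstream of all the genes described here.

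The estimated counts per tumor ranged from 19130532 to 27681766, and 3 counts, the most that a count of 0 allows, correspond to 0.108 to 0.157 CPM, counts scaled to library size, a limit that covers counting error only. M1T1 stood apart from the other 5. The summed TPM of 10 hepatocyte markers was 1901 in that tumor, compared with 36676 to 65152 in the others, with *Alb* at 702 against 8348 to 16603 TPM. Other markers in that tumor, set against the range of the other 5, summed to 19.6 against 60.8 to 137 TPM for 11 endothelial genes, 107 against 196 to 714 TPM for 10 macrophage genes, and 0.549 against 3.44 to 11.01 TPM for 7 T and NK cell genes, of which *Cd3e*, *Cd3d* and *Klrb1c* were at 0. The 11 stellate and fibroblast genes summed to 66.3 against 28.3 to 107 TPM, the 7 cholangiocyte genes to 44.3 against 4.61 to 36.5 TPM with *Cftr* at 0, and the 6 neural and neuroendocrine genes to 43.4 against 0.195 to 1.64 TPM. In M1T1, *Spp1* gave 33.0 TPM of the cholangiocyte sum, against 1.40 to 30.4 TPM in the others. *Tubb3* gave 36.4 TPM of the neural and neuroendocrine sum, while *Chga*, *Chgb* and *Snap25* stayed below 1 TPM. The 4 genes listed for central vein endothelium summed to 26.5 against 2.88 to 5.86 TPM, of which *Thbd* gave 21.7 TPM while *Selp* was at 0. The part of these cell types in the values below was not tested, and in bulk tumors fewer cells of a type and less RNA per cell cannot be told apart. TPM values add up to the same total in each tumor, and the scaling moved the values of M1T1. Across the 11321 genes that averaged 1 TPM or more over the other 5 tumors, the median difference between M1T1 and the mean of those 5 was 0.67 on the log2(TPM + 1) scale, and -0.18 on the log2(value + 1) scale of TMM-normalized CPM per kilobase. For the 19 members among them the median difference was 0.80 and 0.09 on these scales.

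M1T2 and M1T3 shared signal with M1T1, which bears on every low value given below for them. Of the genes outside the 50, 71 had at least 1000 counts in M1T1 and no count in any tumor of mouse 2. In M1T2 these genes stood at a median of 1.83% of their TPM in M1T1 (interquartile range 1.47% to 2.23%), and in M1T3 at a median of 1.90% (1.49% to 2.61%). 11 of the 50 genes were at or below 0.1 TPM in all tumors of mouse 2 with at least 100 counts in M1T1, and they stood at medians of 2.73% and 2.23% of their M1T1 level in M1T2 and M1T3. Their shares ran from 1.90% for *Wnt10a* to 5.68% for *Rspo4* in M1T2, and from 0.63% for *Fzd3* to 8.02% for *Wnt9b* in M1T3, where *Rspo4*, *Fzd3* and *Wnt9b* rested on 9, 2 and 51 counts. The source of this shared signal was not tested. M1T2 and M1T3 also resembled each other more than other tumors did: 27.3% of genes differed between them beyond counting noise (chi-square test, p under 0.05), compared with 60.0% to 72.3% for pairs of mouse 2 tumors. They were kept as separate tumors because the labels name them so. The test covers counting noise alone, so it cannot tell separate tumors from repeat libraries of the same tumor.

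**Figure D1:**
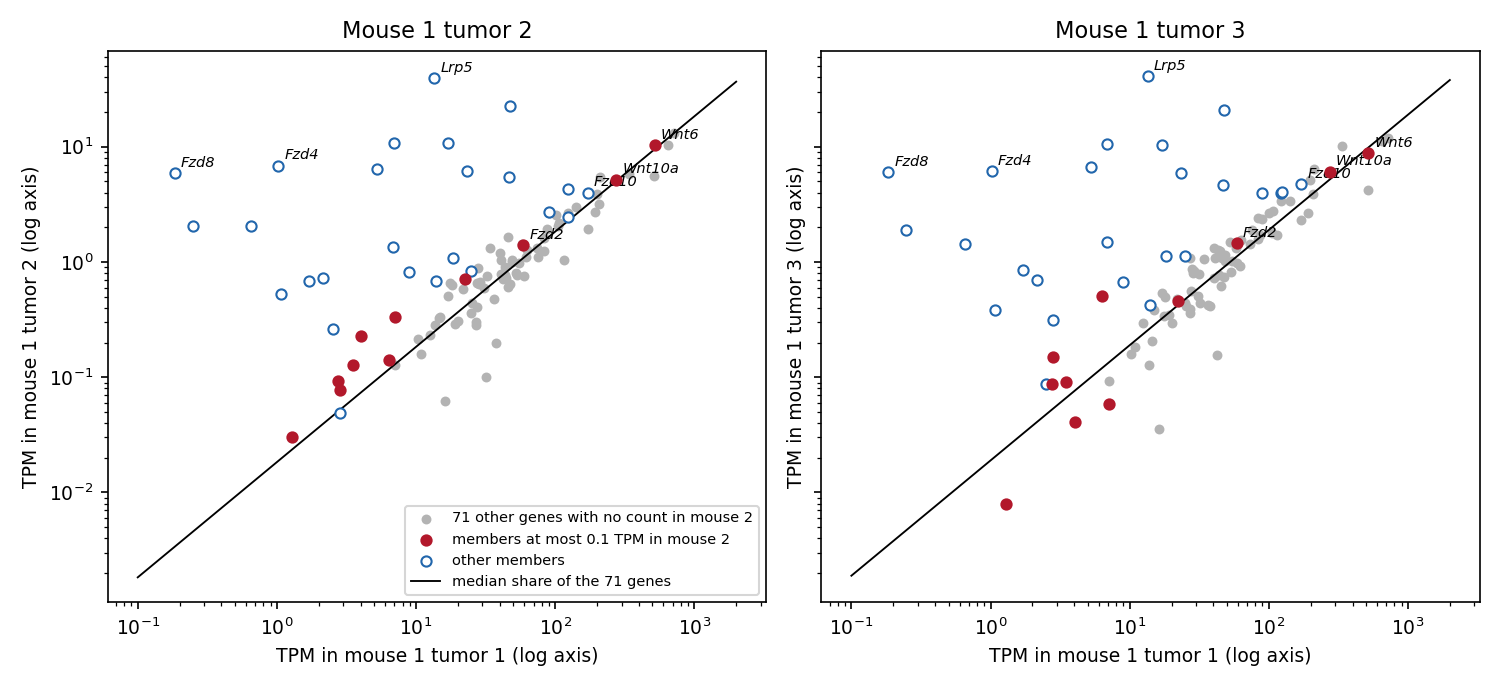
TPM in M1T2 (left) and M1T3 (right) against TPM in M1T1, on log axes, with 1 point per gene. The 71 other genes without a count in mouse 2 (grey) and the members at or below 0.1 TPM in mouse 2 (red) lie near the lines at 1.83% and 1.90%, whereas *Lrp5*, *Fzd4* and *Fzd8* lie far above them; genes at 0 in the tumor plotted are not drawn.

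Of the 50 genes, 48 were detected in at least 1 tumor and 2, *Wnt3a* and *Rspo2*, had no count in any. 36 reached 1 TPM in at least 1 tumor, and the other 14 (*Wnt1*, *Wnt2b*, *Wnt3a*, *Wnt7a*, *Wnt7b*, *Wnt8b*, *Fzd9*, *Lgr6*, *Rspo1*, *Rspo2*, *Sfrp1*, *Sfrp2*, *Sfrp5* and *Dkk1*) stayed at or below 0.759 TPM. The ligand *Wnt5b* and the receptors *Fzd1*, *Fzd4*, *Fzd7*, *Lrp5*, *Lrp6*, *Ryk* and *Lgr4* were at or above 1 TPM in all 6 tumors, and *Fzd5* and *Fzd8* joined them in the 5 tumors other than M1T1. In M1T2 and M1T3 and in all 3 tumors of mouse 2, *Lrp5* was the most abundant of the 50 genes, whereas in M1T1 the order was *Wnt6*, *Wnt10a*, *Fzd10*, *Dkk3*, *Fzd6* and *Wls*. 12 of the 36 reached 1 TPM in M1T1 alone, so that their being highest there follows from the threshold. Among the 19 members that averaged at least 1 TPM over the other 5 tumors, 10 were highest in M1T1, against 58.1% of the 11321 genes at that level, and 5 (*Fzd4*, *Fzd5*, *Fzd8*, *Lrp5* and *Lgr4*) were lowest there, against 24.9% of those genes. On the TMM scale 9 were highest in that tumor, *Lrp6* being the one that was not, against 37% of genes, and 7 were lowest there, *Fzd7* and *Frzb* being added, against 45.3%. The shares of members highest and lowest in M1T1 on the TPM scale were thus near those of all genes. By Dixon's ratio on log2(TPM + 1), the gap of the highest or lowest of 6 values over their range set against its 95% critical value, M1T1 stood apart as the highest for 7 of the 19, against 21.6% of genes, and as the lowest for 1, against 10.1%. The 19 are not independent of M1T1, because 4 of them stayed below 1 TPM in mouse 2 and carried shared signal. With that signal taken off M1T2 and M1T3, *Wnt6* stood at 0.834 and 0 TPM there and *Wnt10a* at 0.183 and 0.905 TPM. *Fzd10* stood at 0.869 and 1.52 TPM and *Dkk3* at 0.150 and 1.67 TPM. These counts are therefore a description only.

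Wnt ligand transcripts were most abundant in M1T1, where the 18 genes summed to 918 TPM, compared with 3.13 to 25.8 TPM in the other 5 tumors. Most of this came from a pair of neighboring genes. *Wnt6*, a ligand of epithelial and kidney tubule development, stood at 520, 10.4 and 8.85 TPM in M1T1, M1T2 and M1T3, and had no count in the tumors of mouse 2. *Wnt10a*, which in humans and mice is required for teeth, hair and skin appendages, stood at 273, 5.19 and 6.08 TPM in mouse 1 and at 0, 0.0346 and 0 TPM in mouse 2, where its whole signal was 2 counts in M2T2. Both genes were therefore found in all 3 tumors of mouse 1 without overlap with mouse 2, though in M1T2 and M1T3 they lay at the share of M1T1 signal described above. Here and below, a lack of overlap is to be read beside its share among genes at 1 TPM or more in both mice. *Wnt6* and *Wnt10a* did not reach that level in mouse 2, nor did several genes below, so for these the share comes from an unlike set. Among the 10797 genes averaging at least 1 TPM in each mouse, 38.8% were higher in every tumor of mouse 1. On the TMM scale this share was 8.8%. *Wnt6* (chr1, 74754342 to 74785322) and *Wnt10a* (chr1, 74792019 to 74804176 on GRCm38) lie 6696 bases apart, with no protein coding gene starting between them. Together they held 86.4% of ligand TPM in M1T1, 60.3% and 60.9% in M1T2 and M1T3, and at most 0.206% in mouse 2. When the shared signal was taken off M1T2 and M1T3, the pair held 11.4% and 11.1% there. The ratio of *Wnt6* to *Wnt10a* was 1.90 in M1T1, 2.00 in M1T2 and 1.46 in M1T3. Of the 17534 estimated reads of *Wnt6* in M1T1, 16229 were assigned to its coding transcript *Wnt6-201* and 1305 to *Wnt6-202*, a transcript with a retained intron.

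The 250 bases before the start of *Wnt6* in the RefSeq table are shown because this gene had the highest level of the 50 in M1T1 and no count in mouse 2 (RefSeq, GRCm38.p6, chr1:74771642-74771891, plus strand, all in lower case because no CTTTGAT was found). This start lies 17550 bases inside the annotated span of the gene, which begins upstream of it. The 250 bases hold 28 CpG dinucleotides, whereas the median of 32851 RefSeq windows of this length is 6 (interquartile range 2 to 16).
Wnt6 upstream: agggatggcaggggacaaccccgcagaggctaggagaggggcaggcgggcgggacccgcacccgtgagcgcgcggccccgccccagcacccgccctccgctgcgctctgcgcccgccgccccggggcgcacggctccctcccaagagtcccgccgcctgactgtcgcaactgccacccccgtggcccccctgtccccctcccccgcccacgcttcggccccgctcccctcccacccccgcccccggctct

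3 further pairs of ligand genes lie next to each other. *Wnt9b* (chr11, 103727362 to 103775272) overlaps *Wnt3* (chr11, 103774175 to 103818021) by 1098 bases, and reads of the overlap could be assigned to either gene. *Wnt9b*, which is best known from kidney development and is also made by liver endothelium, stood at 6.36, 0.14 and 0.51 TPM in mouse 1 and at 0.0946, 0.0235 and 0.023 TPM in mouse 2. *Wnt3*, a ligand of gastrulation and of intestinal crypts, stood at 2.77, 0.0932 and 0.0879 TPM in mouse 1 and had no count in mouse 2. Both were highest in M1T1 and above 1 TPM there alone. *Wnt9a* (chr11, 59306849 to 59333552), known from joint and blood stem cell development, lies 16097 bases from *Wnt3a*, which had no count. It stood at 14.003, 0.679 and 0.425 TPM in mouse 1, against 0.0431, 0.192 and 0.141 TPM in mouse 2. *Wnt10b* (chr15, 98770712 to 98778206), a ligand of bone and fat cell differentiation, lies 11650 bases from *Wnt1*, which stayed below 1 TPM in every tumor. *Wnt10b* stood at 22.4, 0.717 and 0.462 TPM in mouse 1, against 0, 0.0778 and 0.0408 TPM in mouse 2. For *Wnt9a* and *Wnt10b* the tumors of the 2 mice did not overlap on the TPM scale. That held for 38.8% of genes averaging at least 1 TPM in each mouse, a level that neither gene reached in mouse 2.

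*Wnt5a* and *Wnt5b*, close relatives that act mainly through ROR and RYK, differed in how widely they were found. *Wnt5a* stood at 24.97, 0.841 and 1.12 TPM in mouse 1, against 0.358, 0.668 and 0.157 TPM in mouse 2. *Wnt5b* stood at 46.5, 5.44 and 4.62 TPM in mouse 1, against 1.92, 4.53 and 1.76 TPM in mouse 2. *Wnt5b* was thereby the only ligand at or above 1 TPM in all 6 tumors, and M2T2 lay close to M1T2 and M1T3. The transcripts of *Wnt5b* differed between the tumors as well. Its 4 transcripts in the tables use 3 start sites on the minus strand of chr6, at positions 119544347 (*Wnt5b-203* and *Wnt5b-204*), 119467211 (*Wnt5b-202*) and 119449386 (*Wnt5b-201*), so that the start of *Wnt5b-202* lies 77136 bases downstream of the first and that of *Wnt5b-201* 94961 bases downstream of it. In M1T1, 73.9% of the estimated *Wnt5b* reads were assigned to the transcripts of the first start and 16.6% to *Wnt5b-202*. In M1T2 and M1T3, 15.7% and 13.2% were assigned to the first start and 84.3% and 79.1% to *Wnt5b-202*. In mouse 2 no read was assigned to the first start, and *Wnt5b-202* took 92.2%, 100% and 84.6% in M2T1, M2T2 and M2T3. The reads of the first start numbered 1375 in M1T1, 30.8 in M1T2 and 28.02 in M1T3, so that these held 2.24% and 2.04% of the number in M1T1. Estimated reads of *Wnt5b-202* were 308, 165 and 169 in mouse 1, and 75.6, 173 and 58.4 in mouse 2. The 2 mice thus overlapped for the inner start, while reads of the first start were found in mouse 1 alone. The annotated coding part is 963 bases long in *Wnt5b-202*, 1077 in *Wnt5b-201* and *Wnt5b-204*, and 1116 in *Wnt5b-203*. These assignments are estimates made by the quantification program, and no start was measured directly.

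The 250 bases before each of the 3 starts of *Wnt5b* are given because the tumors differed in the start to which their reads were assigned (RefSeq, GRCm38.p6, minus strand, 5′ to 3′). They lie at chr6:119544348-119544597 for the first, chr6:119467212-119467461 for the second and chr6:119449387-119449636 for the third. Capitals mark CTTTGAT, the core motif of TCF and LEF factors, through which β-catenin acts on DNA.
Wnt5b-203 and Wnt5b-204 upstream: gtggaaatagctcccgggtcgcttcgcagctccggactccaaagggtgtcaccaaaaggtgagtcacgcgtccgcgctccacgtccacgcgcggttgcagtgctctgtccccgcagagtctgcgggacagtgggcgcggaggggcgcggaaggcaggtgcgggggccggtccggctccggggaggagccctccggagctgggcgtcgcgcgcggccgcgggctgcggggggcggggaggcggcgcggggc
Wnt5b-202 upstream: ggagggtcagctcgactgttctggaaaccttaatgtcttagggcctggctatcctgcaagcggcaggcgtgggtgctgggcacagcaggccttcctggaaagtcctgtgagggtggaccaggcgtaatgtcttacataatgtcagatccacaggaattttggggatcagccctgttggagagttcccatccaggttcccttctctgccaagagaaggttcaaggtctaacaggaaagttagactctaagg
Wnt5b-201 upstream: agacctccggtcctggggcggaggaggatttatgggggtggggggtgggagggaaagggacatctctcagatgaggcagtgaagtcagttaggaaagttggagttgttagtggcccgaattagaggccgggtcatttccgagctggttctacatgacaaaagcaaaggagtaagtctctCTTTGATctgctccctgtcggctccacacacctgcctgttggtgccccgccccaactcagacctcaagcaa
The first stretch holds 35 CpG dinucleotides, compared with 4 in the second and 7 in the third. CTTTGAT was found only in the third, beginning 71 bases before the start to which 0% to 15.4% of *Wnt5b* reads were assigned. Windows from 250 bases before to 50 bases after a start were present in the RefSeq table for 34 of the 50 genes, 37 windows in all. CTTTGAT, searched on both strands, was found in 2 of them (*Wnt5b* and *Wnt11*), against 3.73% of all 32851 windows. CTTTGAA, the other form of the motif, was found in 1 (*Dkk1*), against 5.14% of all windows. A match or its lack in these windows is a description of the letters and was not tested as a binding site.

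4 further ligands did not follow M1T1 or stayed low. *Wnt4*, which acts in kidney and gonad development, stood at 2.16, 0.733 and 0.697 TPM in mouse 1 and at 2.59, 9.88 and 0.0343 TPM in mouse 2. Its highest and its lowest tumor both came from mouse 2, and in M2T2 it made up 58.9% of ligand TPM. *Wnt16*, a ligand of bone and joint tissue, stood at 2.52, 0.263 and 0.0877 TPM in mouse 1 and at 4.88, 0.34 and 0 TPM in mouse 2, so that it too was highest in a tumor of mouse 2. *Wnt11*, a ligand of convergent extension movements, stood at 1.07, 0.524 and 0.386 TPM in mouse 1 and at 1.69, 0.602 and 0.609 TPM in mouse 2. In M1T1 its whole level came from 2 transcripts at 0.739 and 0.336 TPM that are annotated as targets of nonsense-mediated decay, and over the 6 tumors coding transcripts gave 51.8% of its TPM. *Wnt2*, which in liver is made by endothelial cells around the central vein, stood at 1.72, 0.68 and 0.85 TPM in mouse 1 and at 0.448, 0.375 and 0.22 TPM in mouse 2. The mice overlapped for *Wnt4*, *Wnt16* and *Wnt11* and did not overlap for *Wnt2* on the TPM scale. A lack of overlap held for 38.8% of genes averaging at least 1 TPM in each mouse, a level that *Wnt2* did not reach in mouse 2. The most counts of *Wnt2* in a tumor were 63.

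**Figure D2:**
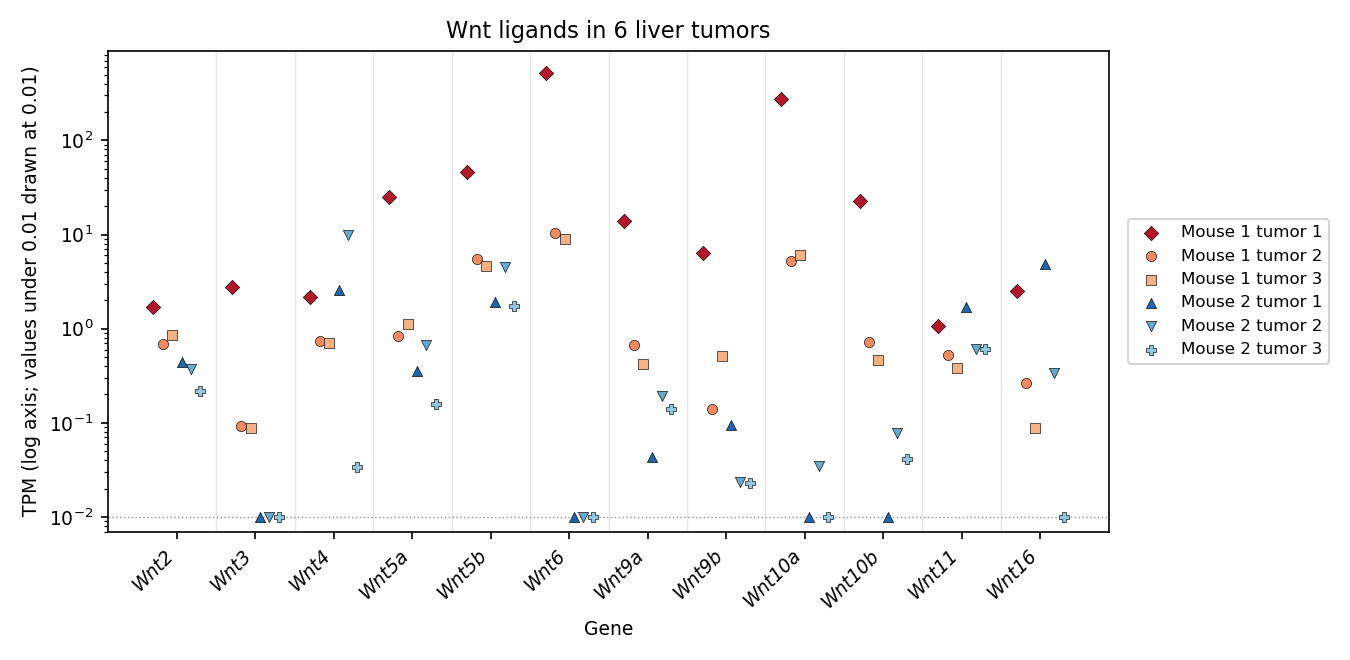
TPM of the 12 Wnt ligands that reached 1 TPM in at least 1 tumor, on a log axis, with 1 symbol per tumor and values under 0.01 drawn at 0.01. *Wnt6* at 520 TPM and *Wnt10a* at 273 TPM top the plot in M1T1, *Wnt4* and *Wnt16* are highest in tumors of mouse 2, and *Wnt5b* lies at or above 1.76 TPM in all 6 tumors.

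The Frizzled receptors differed between tumors more in their make-up than the total alone shows. Summed over 10 genes, they reached 384 TPM in M1T1 and 13.4 to 37.2 TPM in the other 5. In M1T1, *Fzd10*, *Fzd6* and *Fzd2* held 91.8% of this sum, compared with 26.0% and 27.7% in M1T2 and M1T3 and 3.05%, 9.90% and 3.98% in mouse 2. With the shared signal taken off, M1T2 and M1T3 stood at 10.7% and 11.9%. *Fzd4*, *Fzd7*, *Fzd1* and *Fzd8* together held 7.76% in M1T1 and 67.1% to 88.1% in the other 5 tumors.

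*Fzd10*, a receptor that is low in most adult tissues, stood at 171, 4.01 and 4.76 TPM in mouse 1 and at 0.109, 0.0456 and 0 TPM in mouse 2. *Fzd6*, which acts in hair patterning and planar polarity, stood at 123, 4.29 and 3.98 TPM in mouse 1 and at 0.336, 1.53 and 0.534 TPM in mouse 2. *Fzd2*, a receptor for WNT5A among other ligands, stood at 58.7, 1.39 and 1.45 TPM in mouse 1 and had no count in mouse 2. For each of the 3 genes M1T1 lay far above M1T2 and M1T3, and the mice did not overlap on the TPM scale. Such a lack of overlap held for 38.8% of genes averaging at least 1 TPM in each mouse, a level that none of the 3 reached in mouse 2. *Fzd3*, a receptor of axon guidance, reached 1.28 TPM in M1T1, was at 0.0302 and 0.00802 TPM in M1T2 and M1T3, and had no count in mouse 2. *Fzd1*, found in many tissues, stood at 23.4, 6.21 and 5.90 TPM in mouse 1 and at 2.89, 3.69 and 2.93 TPM in mouse 2, with M1T2 and M1T3 far above the level of the shared signal.

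An opposite pattern was seen for 3 other receptors, which were lowest in M1T1. *Fzd8*, a receptor that binds LRP6-dependent ligands such as WNT3A, stood at 0.185, 5.88 and 6.02 TPM in mouse 1 and at 3.03, 1.79 and 2.47 TPM in mouse 2, from 20 counts in M1T1 to 896 in M1T3. *Fzd4*, the endothelial receptor for norrin, stood at 1.02, 6.84 and 6.14 TPM in mouse 1 and at 4.18, 3.51 and 3.35 TPM in mouse 2. *Fzd5*, a receptor of intestinal and eye epithelia, stood at 0.248, 2.07 and 1.89 TPM in mouse 1 and at 1.51, 1.36 and 1.05 TPM in mouse 2. M1T1 lay below M1T2 and M1T3 for each of them, so that the tumors of mouse 1 fell on both sides of those of mouse 2. The summed endothelial markers were lowest in the same tumor, at 19.6 TPM, and the part of endothelial cells in these values was not tested. *Fzd7*, a receptor of stem and progenitor cells, varied least among the Frizzled genes that reached 1 TPM, at 5.23, 6.45 and 6.64 TPM in mouse 1 and 2.52, 3.94 and 3.06 TPM in mouse 2.

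**Figure D3:**
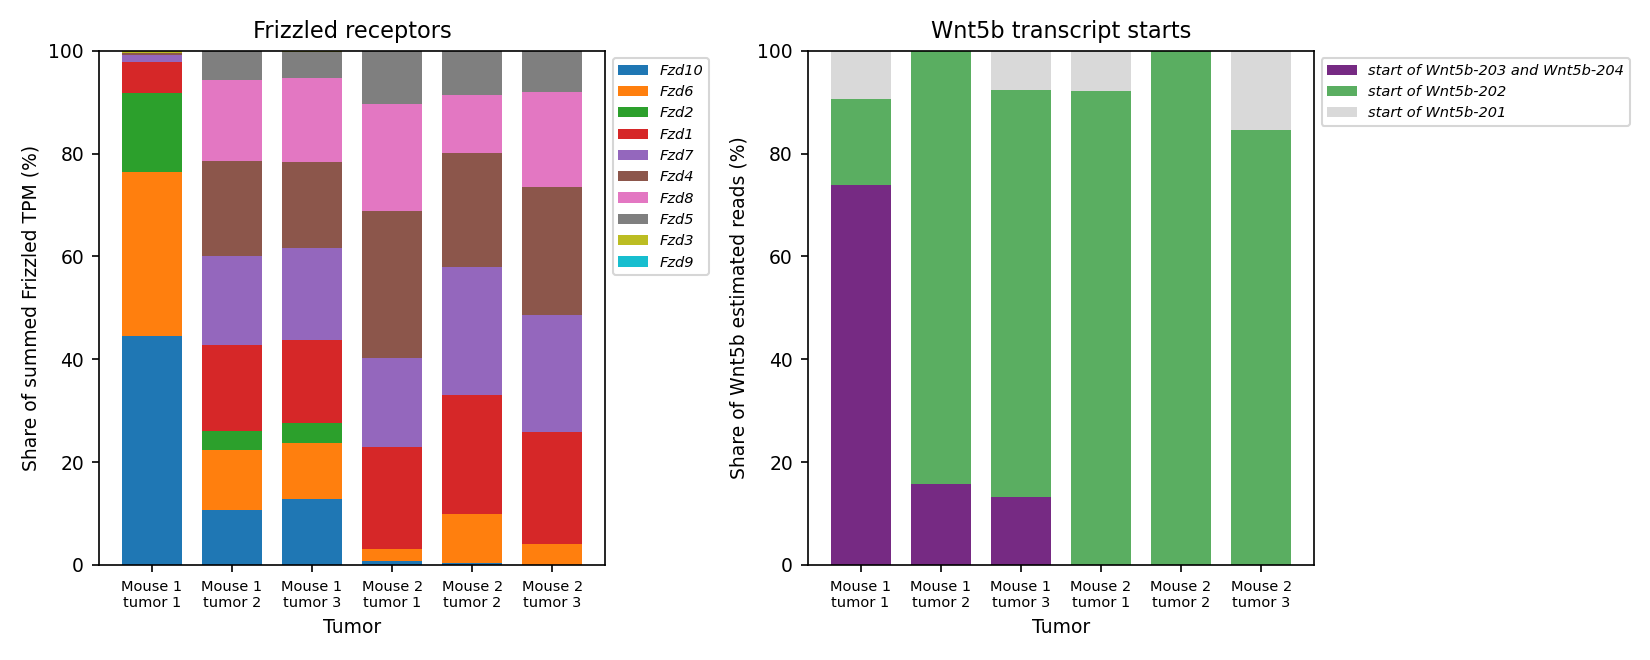
Left, share of each Frizzled gene in the summed Frizzled TPM of a tumor (%), and right, share of *Wnt5b* estimated reads assigned to each of its 3 starts (%), with 1 bar per tumor. In M1T1 *Fzd10*, *Fzd6* and *Fzd2* fill 91.8% of the Frizzled bar and the first start 73.9% of the *Wnt5b* bar, while in mouse 2 the first start takes 0%.

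The co-receptors that LRP-dependent ligands need were present in every tumor. *Lrp5* (chr19, 3584825 to 3686585) stood at 13.4, 39.1 and 41.2 TPM in mouse 1 and at 37.2, 32.3 and 28.5 TPM in mouse 2, and was lowest in M1T1. *Lrp6* (chr6, 134446476 to 134566913) stood at 16.9, 10.8 and 10.4 TPM in mouse 1 and at 8.91, 8.71 and 7.70 TPM in mouse 2, and was highest in that tumor on the TPM scale but not on the TMM scale. *Lrp5* exceeded *Lrp6* by 3.62 to 4.17 times in 5 tumors, whereas the ratio was 0.794 in M1T1. This ratio is taken within a tumor and does not depend on the scaling. *Ryk*, a kinase-like receptor that binds Wnt ligands without Frizzled, followed *Lrp5* in level in those 5 tumors, and stood at 47.7, 22.6 and 21.0 TPM in mouse 1 and at 9.27, 14.8 and 11.02 TPM in mouse 2. *Ror1*, a receptor for WNT5A that is mostly embryonic, stood at 18.3, 1.09 and 1.13 TPM in mouse 1 and at 0.338, 0.463 and 0.167 TPM in mouse 2. *Ror2*, its relative in skeletal development, stood at 2.83, 0.0773 and 0.15 TPM in mouse 1 and had no count in mouse 2. The 2 mice did not overlap for any of these 3 receptors on the TPM scale, as for 38.8% of genes, a share that was 8.8% on the TMM scale. Of the 3, only *Ryk* averaged at least 1 TPM in each mouse, the level of the genes behind these shares. *Ror2* rested on 6 and 15 counts in M1T2 and M1T3. *Lgr4*, the R-spondin receptor of hepatocytes, was lowest in M1T1 yet among the least variable members, at 6.92, 10.9 and 10.5 TPM in mouse 1 and 8.84, 7.77 and 9.42 TPM in mouse 2.

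**Figure D4:**
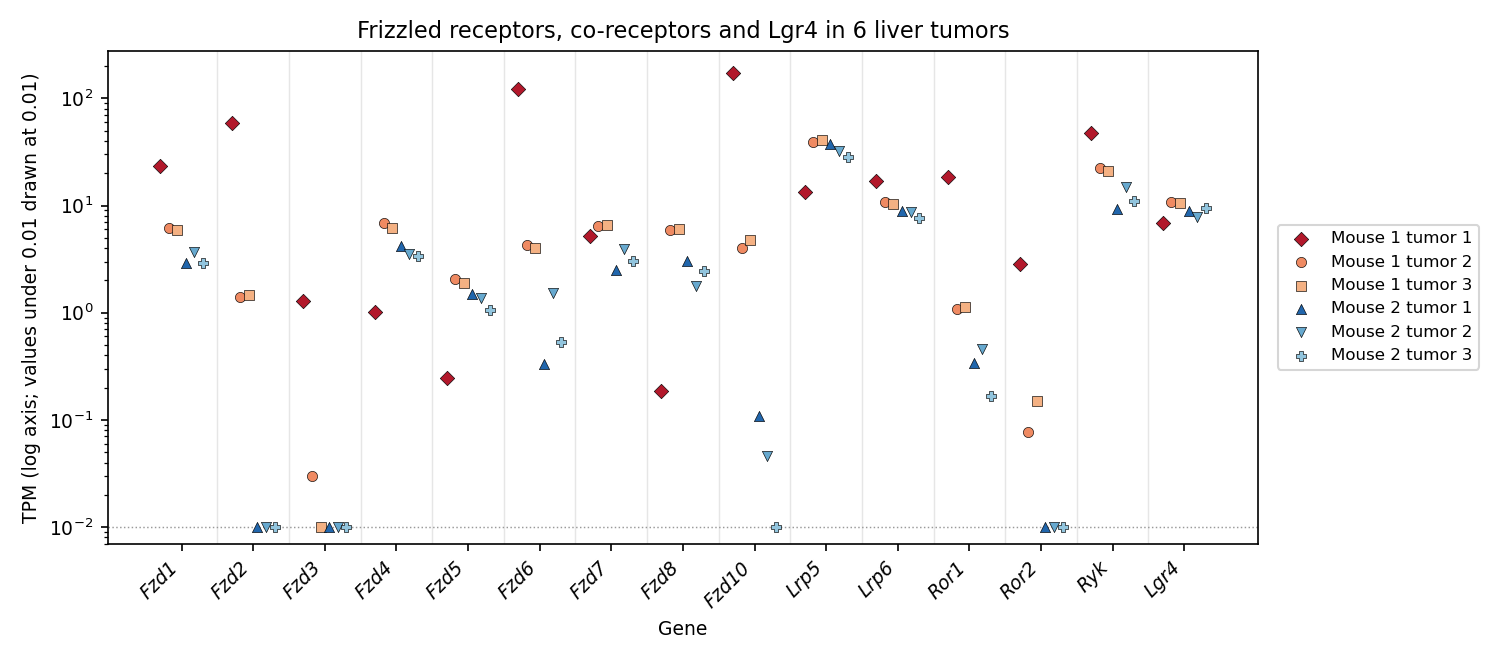
TPM of 15 receptor and co-receptor genes on a log axis, with 1 symbol per tumor and values under 0.01 drawn at 0.01. M1T1 lies above all other tumors for *Fzd10*, *Fzd6*, *Fzd2*, *Ror1* and *Ryk* among others, and below all others for *Fzd4*, *Fzd5*, *Fzd8*, *Lrp5* and *Lgr4*.

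The R-spondins, which act with LGR receptors, were low outside M1T1, where they summed to 13.2 TPM, compared with 0.220 to 1.12 TPM in the other tumors. *Rspo3*, the main R-spondin of the central vein, stood at 8.97, 0.826 and 0.67 TPM in mouse 1 and at 0.22, 0.342 and 0.299 TPM in mouse 2. *Rspo4*, which in humans is required for nails, stood at 4.05, 0.23 and 0.0406 TPM in mouse 1 and had no count in mouse 2. For *Rspo3* the tumors of the 2 mice did not overlap on the TPM scale, and its counts outside M1T1 were 12 to 42 per tumor. A lack of overlap held for 38.8% of genes averaging at least 1 TPM in each mouse, a level that *Rspo3* did not reach in mouse 2.

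Both secretion genes were highest in the tumor with the most ligand. *Wls*, the carrier that brings Wnt proteins to the cell surface, stood at 89.6, 2.71 and 3.99 TPM in mouse 1 and at 1.02, 1.504 and 0.739 TPM in mouse 2. Of its 3741 estimated reads in M1T1, 1163 were assigned to *Wls-206*, a transcript annotated as a target of nonsense-mediated decay. *Porcn*, the enzyme that attaches the lipid to Wnt proteins, stood at 6.84, 1.35 and 1.499 TPM in mouse 1 and at 0.437, 0.889 and 0.824 TPM in mouse 2. The mice did not overlap for either gene on the TPM scale, as for 38.8% of genes averaging at least 1 TPM in each mouse. *Wls* reached that level in both mice and *Porcn* did not in mouse 2.

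Of the 5 secreted antagonists that reached 1 TPM, 4 were highest in M1T1 and *Frzb* was not. *Dkk2*, *Dkk4* and *Sfrp4* reached 1 TPM in M1T1 alone, so that their being highest there follows from the threshold. Among the 11321 genes that averaged 1 TPM or more over the other 5 tumors, 58.1% were highest in M1T1. *Dkk3*, a divergent member of the DKK family whose action on LRP receptors is disputed, stood at 124, 2.43 and 4.03 TPM in mouse 1 and at 0.248, 0.609 and 0.273 TPM in mouse 2. *Dkk2*, which binds LRP5 and LRP6, stood at 3.50, 0.128 and 0.0905 TPM in mouse 1 and at 0, 0.0308 and 0 TPM in mouse 2. *Dkk4*, itself a known target of Wnt signaling, stood at 2.83, 0.0493 and 0.311 TPM in mouse 1 and at 0, 0.0457 and 0.179 TPM in mouse 2. *Dkk3* therefore supplied most of the 132 TPM of DKK transcripts in M1T1, the other tumors holding 0.248 to 4.46 TPM. *Sfrp4*, a secreted Frizzled-like protein of bone and skin, stood at 7.11, 0.333 and 0.0586 TPM in mouse 1 and had no count in mouse 2. *Frzb*, another secreted Frizzled-like protein known from cartilage, stood at 0.656, 2.07 and 1.44 TPM in mouse 1 and at 0.371, 1.21 and 0.651 TPM in mouse 2. It was highest in M1T2, and the mice overlapped.

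**Figure D5:**
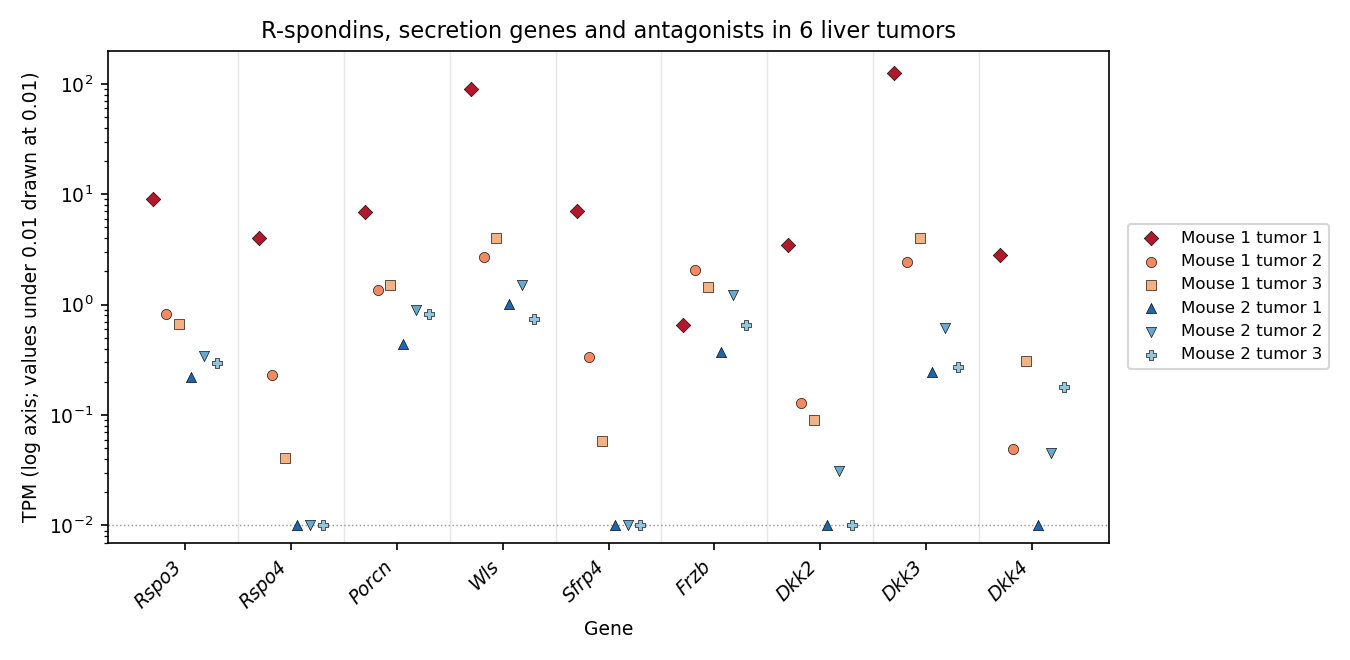
TPM of the R-spondins, secretion genes and antagonists that reached 1 TPM in at least 1 tumor, on a log axis, with 1 symbol per tumor and values under 0.01 drawn at 0.01. *Dkk3* at 124 TPM and *Wls* at 89.6 TPM lead in M1T1, and *Frzb* is the gene of this plot whose highest value, 2.07 TPM, lies in M1T2.

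The design allows 1 comparison with replicates, that of 3 tumors of mouse 1 with 3 tumors of mouse 2. It compares 2 animals of the same genotype and treatment and takes its error from tumors that share a host. Of the 12 members that averaged at least 1 TPM in each mouse, 6 (*Wnt5b*, *Fzd1*, *Fzd7*, *Lrp6*, *Ryk* and *Wls*) were higher in every tumor of mouse 1 than in every tumor of mouse 2, against 38.8% of the 10797 genes at that level, and 0 were lower in every tumor, against 1.84%. On the TMM scale 3 of the 12 (*Fzd1*, *Ryk* and *Wls*) were higher in every tumor of mouse 1, against 8.8% of those genes, and 0 were lower, against 14.8%. With all 6 tumors no member passed the test (edgeR quasi-likelihood test, Benjamini-Hochberg adjusted p under 0.05): 0 of 28 tested members were higher in mouse 1, against 0% of 13259 genes, and 0 were lower, against 0%. At an unadjusted p under 0.05 there were 14 members and 1448 genes. DESeq2 called 1 member, *Wnt9b* (log2 fold change 4.51 ± 1.34 SE, adjusted p = 0.0484 by DESeq2), against 1.52% of 13259 genes, but gave no p for 11 of the 28 members, among them *Wnt6*, *Wnt10a*, *Fzd10*, *Fzd2*, *Wls* and *Dkk3*. *Wnt9b* had 494 counts in M1T1 and 2 to 51 in the other tumors. Without M1T1, DESeq2 did not call it (adjusted p = 0.241 by DESeq2). limma-voom called 0 members and 0 genes, with 1 member and 706 genes at an unadjusted p under 0.05. The median log2 fold change of mouse 1 over mouse 2 in edgeR was 1.58 for the 28 members that passed the filter on low counts, some of them through mouse 1 alone, and 0.05 for all genes. Without M1T1 these medians were 0.64 and -0.01.

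When M1T1 was left out, 4 members passed the edgeR test as higher in mouse 1, against 0.838% of 13365 genes, and 0 as lower, against 0.419%. These were *Wnt6* (adjusted p = 0.0218 by edgeR), *Wnt10a* (0.0218), *Fzd2* (0.0349) and *Fzd10* (0.0410), each higher in 2 of 2 tumors than in all 3 of mouse 2. The error of this fit rests in part on M1T2 and M1T3, which resembled each other more than other tumors did. None of the 4 had more than 8 counts in a tumor of mouse 2, so they passed the filter on low counts through M1T2 and M1T3. Their number and p-values are therefore not independent of the side on which they were called. *Wnt6* had 382 and 477 counts in M1T2 and M1T3 and none in mouse 2, so that its mean CPM was at least 116-fold higher, and *Fzd2*, with 102 and 142 counts against none, at least 32.9-fold higher, taking 3 counts per library as the limit for mouse 2. *Wnt10a* had 261 and 410 counts, against 0, 2 and 0 in mouse 2. *Fzd10* had 236 and 366 counts, against 8, 3 and 0 in mouse 2. When the share of M1T1 signal was also taken off the counts of M1T2 and M1T3, 0 of 25 tested members passed the edgeR test, and 1 of 13071 genes passed it. At an unadjusted p under 0.05 there were 6 of these members, against 18.1% of genes, and *Wnt10a* was no longer among those tested. In M1T2 and M1T3, *Wnt6* stood at 1.99% and 1.70% of its M1T1 level and *Wnt10a* at 1.90% and 2.23%. *Fzd2* stood at 2.37% and 2.47% and *Fzd10* at 2.34% and 2.78%. All lay within the full range of the 71 genes outside the 50, which was wide at 0% to 3.90% in M1T2 and 0% to 4.02% in M1T3. *Fzd2* in M1T2 and *Fzd10* in both lay above the interquartile range of the 71. With the share taken off, *Wnt6*, *Fzd2* and *Fzd10* stayed higher in mouse 1, though none passed (adjusted p = 0.120, 0.107 and 0.136 by edgeR). For the receptors that were well measured in all 5 of these tumors the differences were smaller and did not pass, such as *Lrp5* (log2 fold change -0.22 ± 0.18 SE, adjusted p = 0.541 by edgeR), *Ryk* (0.35 ± 0.18 SE, adjusted p = 0.340) and *Fzd8* (0.68 ± 0.29 SE, adjusted p = 0.275).

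Genes of the pathway outside the 50 were taken from 4 lists and none passed the edgeR test with 6 tumors. The 28 secreted and membrane modulators summed to 5042 TPM in M1T1 and to 750 to 1419 TPM in the other tumors. In that tumor most of the sum came from *Notum*, an enzyme that removes the lipid of Wnt proteins, at 1822 against 17.4 to 101 TPM, and *Wif1*, a secreted Wnt inhibitor, at 2029 against 0.443 to 37.1 TPM. *Igfbp4*, a binding protein of insulin-like growth factors that also blocks Wnt receptors, went the other way at 162 against 537 to 968 TPM. Without M1T1, 3 of 18 tested modulators (*Apcdd1*, *Ptk7* and *Tpbg*) passed as higher in mouse 1, against 0.838% of 13365 genes. All 3 were below 0.1 TPM in every tumor of mouse 2, so the limit given above for the called members bears on them too. *Apcdd1* stood at 175, 3.97 and 4.09 TPM in mouse 1 and at 0.00467, 0.0315 and 0 TPM in mouse 2, which again is close to the share of M1T1 signal. The 15 general Wnt target genes summed to 5867 TPM in M1T1 and to 89.2 to 409 TPM in the others. *Notum* and *Wif1* are counted in this list as well. Of the 15, 14 were highest in M1T1, against 58.1% of the 11321 genes that averaged 1 TPM or more over the other 5 tumors. This was not particular to the targets. Highest in M1T1 were also 23 of the 28 modulators, 21 of the 24 intracellular transducers and 21 of the 25 planar polarity and Wnt-calcium genes. The lists were not filtered at 1 TPM, and on the TMM scale the share of the 11321 genes was 37%. Without M1T1, 1 of 14 tested, *Apcdd1*, was called as higher in mouse 1, against 0.838% of 13365 genes. *Ctnnb1*, which encodes β-catenin, stood at 821 TPM in M1T1 and at 91.0 to 180 TPM in the others, in values that do not separate the allele without exon 3. None of 24 intracellular transducers passed with or without that tumor. In the planar polarity and Wnt-calcium list of 25 genes, none of which passed either, *Prickle2* stood at 57.3 TPM in M1T1 and at 0.134 to 1.90 TPM in the others. The median log2 fold change of mouse 1 over mouse 2 with 6 tumors was 1.03 for the tested modulators, 0.62 for the transducers, 0.46 for the planar polarity list and 1.52 for the targets, beside 0.05 for all genes. Without M1T1 these medians were 0.36, 0.13, 0.41 and 0.62, beside -0.01 for all genes. The lists share genes, among them *Notum*, *Wif1*, *Tcf7* and *Lef1*. They were chosen with earlier results of these data known, so the counts and medians are a description only.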

How the data were processed

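All 6 tumors of the 2 CMRtdT mice entered the analysis. For each Ensembl mouse transcript the authors' tables give an estimated count, the unscaled number of fragments assigned to it, and a TPM value that the authors' program corrected for effective length and depth. The layout is that of Salmon, and the study's list of software names Salmon 1.5.1. The submitters' processing notes list GRCm38, BWA and Picard with no version, and the index release was not found in these sources. The labels describe poly A libraries, while the text of the series speaks of total RNA.

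Both measures were summed per gene symbol after matching transcripts, without version, to GENCODE vM39 (GRCm39, used for names, transcript types and coding lengths), which placed 114813 transcripts and left out 1733, with 0.373% to 0.68% of the counts of a tumor. Gene positions and upstream sequences are those of RefSeq on GRCm38.p6, and the starts of *Wnt5b* were tied to transcripts by their first 20 bases. The members and lists were chosen with earlier results of these data known. Members reaching 1 TPM in a tumor are given in each tumor, the others by their range. Rounded counts of mouse 1 were set against those of mouse 2 in edgeR 4.0.16 with its two-sided quasi-likelihood test, TMM factors and filterByExpr, and p-values were adjusted over all genes. The test was tried on simulated data. As alternatives, DESeq2 1.42.0, limma-voom (limma 3.58.1), other scalings, no filter, a block for tumor number and the omission of single tumors were used. Removal of the share of M1T1 signal from M1T2 and M1T3, by the median ratio over 71 other genes, was chosen after seeing the data, as were the minimums of 1 TPM over the 5 tumors other than M1T1 and in each mouse. Computing was done in R 4.3.3 and in Python 3.11.15 (scipy 1.17.1, pandas 2.3.3, matplotlib 3.10.9, numpy 2.4.6). The tables give no error for the assignment of reads to transcripts.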

Additional observations from a re-analysis of the deposited data

Results flagged for a closer look

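For 23 of the 36 members that reached 1 TPM, 1 tumor lay far from the other 5 by Dixon's ratio on log2(TPM + 1), and in each case this was M1T1. It was the highest in 22 of them. Chance alone exceeds its critical value in about 1 of 20 sets, a rate that does not apply here because 12 of the 36 reached 1 TPM in M1T1 alone, 11 of these being among the 23. Among the 19 members that averaged 1 TPM over the other 5 tumors, M1T1 stood apart as the highest for 7, against 21.6% of 11321 genes, and as the lowest for 1, against 10.1%. Of the 7, *Wnt10a*, *Fzd10* and *Dkk3* were among the 19 in part through the signal that M1T2 and M1T3 shared with M1T1. Among ligands the ratio was 0.933 for *Wnt3*, 0.829 for *Wnt10b*, 0.822 for *Wnt9a*, 0.806 for *Wnt5a*, 0.803 for *Wnt9b*, 0.703 for *Wnt5b* and 0.651 for *Wnt10a*. *Wnt6*, the ligand of the highest level, had a ratio of 0.611 and was not among them. Among receptors the ratio was 0.964 for *Fzd3*, 0.896 for *Ror2*, 0.785 for *Ror1*, 0.781 for *Fzd2*, 0.696 for *Fzd6*, 0.664 for *Fzd1* and 0.660 for *Fzd10*. Among the remaining genes it was 0.920 for *Dkk2*, 0.872 for *Rspo4*, 0.863 for *Sfrp4*, 0.808 for *Rspo3*, 0.798 for *Dkk4*, 0.733 for *Wls*, 0.697 for *Dkk3* and 0.674 for *Porcn*. *Lrp5* was the gene for which that tumor stood apart as the lowest, with a ratio of 0.667. The tumor also had the lowest hepatocyte marker sum, 1901 TPM against 36676 to 65152 TPM in the others, and the part of this in the ratios was not tested.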

How the results depend on the processing

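With 6 tumors, edgeR called 0 members and 0 genes under TMM, other scalings, no filter and a replicate block on tumor number (0 members, 0 genes), and DESeq2 called 1 member and 202 genes. Leaving out 1 tumor at a time gave 0 to 4 members and 0 to 168 genes, the only calls coming without M1T1. Without that tumor DESeq2 called 9 members and 1368 genes, limma-voom 5 and 478, and edgeR with library sizes alone 4 and 151. With the shared signal removed as well, edgeR called 0 members and 1 gene. Tumor numbers do not pair animals, and deviations of tumors with the same number correlated at 0.02, -0.03 and 0.03. Of 28 members with a mean of at least 1 TPM, 8 were at that level in every tumor. With a pseudocount of 0.1 the Dixon ratio of 9 genes (*Wnt9b*, *Wnt10a*, *Wnt10b*, *Fzd2*, *Fzd6*, *Fzd10*, *Porcn*, *Dkk3* and *Dkk4*) no longer passed its critical value, as on the TMM scale for *Wnt10a*, while *Fzd5* passed on both and *Fzd4* on the TMM scale. No ratio past its critical value and no level changed direction. Of the ratios below it, those of *Wnt4* and *Frzb* with a pseudocount of 0.1 and of *Fzd7*, *Lrp6* and *Frzb* on the TMM scale passed to another tumor, and without mitochondrial and the 10 highest genes the mean levels of *Fzd7*, *Lrp5*, *Lrp6* and *Lgr4* moved by more than 1 SD. Genes with few counts, such as *Dkk4* with at most 58 in a tumor, limit what low levels can show.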
